A study of Mus musculus with 18 samples.

Results

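Glycolysis and the exits from it are run by isozymes, that is, by related proteins from separate genes that carry the same reaction. The genes examined were 10 of these: the glucose transporters Slc2a1 and Slc2a3, the hexokinases Hk1 and Hk2, the phosphofructokinases Pfkl, Pfkp and Pfkm, the lactate dehydrogenase subunits Ldha and Ldhb, and the pyruvate dehydrogenase kinase Pdk1. They were taken by name from the 19938 genes that have a probe (transcript cluster) annotated with a single gene symbol. The 10 genes have 12 such probes among the 21789 single-symbol probes of the array and 28853 probes in all. Where a gene had more than 1, namely Hk1 and Ldhb with 2 each, the probe with the highest mean over the arrays was used and the other is given beside it.

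The samples were 18 mouse arrays in 12 groups, from a study of how the level of KLF4 shapes the route from fibroblasts to induced pluripotent stem cells (iPSCs). All sorted cells descended from embryonic fibroblasts (MEFs) on a C57BL/6 background with Nanog-GFP and with ROSA-rtTA, the transactivator that responds to doxycycline. A piggyBac transposon (PB-TAC) brought in either OKMS, called low-KLF4, or OK+9MS, called high-KLF4. Each cassette holds the factors OCT3/4, KLF4, c-MYC and SOX2 with mCherry, so that mCherry marks cells expressing it, in the presence of all these factors. The cells were grown in ES cell medium with doxycycline at 1 µg/mL, passaged on day 8, and sorted for mCherry on days 2, 4, 8 and 18. There were 2 arrays for each cassette on day 8 and 1 on each other day, where no replicate checks a difference. The pluripotent references were low-KLF4 iPSC clones A7 and A9, high-KLF4 iPSC clones A10 and H10, and 2 arrays of 1A2 mESCs, a line with Nanog-GFP. All 6 came from ES cell medium, and each iPSC array is a different clone. The last group was 2 arrays of primary keratinocytes isolated from pups at postnatal day 2 and cultured in D-KSFM medium with EGF and cholera toxin. The cell source and the medium of the keratinocytes therefore both differ from those of the other arrays. The study describes its day 8, mESC and keratinocyte values as averages of independent experiments. The labels themselves do not tie arrays to cultures, and the p-values measure the spread between these arrays. Arrays of MEFs were not analysed here, so the level before induction is not given.

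Glucose enters cells through facilitative transporters. SLC2A1 (GLUT1) is the common form of growing cells, and SLC2A3 (GLUT3) is a high-affinity form known from neurons and from early embryonic and pluripotent cells. Hexokinase traps glucose as glucose 6-phosphate, and phosphofructokinase is the committed and most regulated step, with liver (Pfkl), platelet (Pfkp) and muscle (Pfkm) subunits. Lactate dehydrogenase interconverts pyruvate and lactate as a tetramer of A and B subunits, and PDK1 phosphorylates pyruvate dehydrogenase and so keeps pyruvate out of the mitochondrial cycle. Pluripotent stem cells are known for a high rate of glycolysis, and reprogramming is known to be accompanied by a metabolic shift.

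Values are signal intensities on a linear scale, normalized together by the authors, and differences are given as log2 differences of group means. Probes differ in how well they bind, so a level is compared only with the level of the same probe on another array. No detection call came with the values. In bulk RNA, fewer cells of a type and less RNA per cell cannot be told apart. The cell types were checked against marker lists. The summed signal of 14 keratinocyte markers was 82890 and 84435 in keratinocytes, 15790 to 37079 in high-KLF4 and 5718 to 11119 in low-KLF4 mCherry+ cells, and 5562 to 6587 in pluripotent cells. The sum of 16 pluripotency markers was 60231 to 66338 in pluripotent cells, 1793 to 5866 on days 2 and 4, 8460 to 11097 on day 8, 27413 and 39341 on day 18, and 1637 and 1653 in keratinocytes. The sum of 18 fibroblast markers was 11008 to 47626 in mCherry+ cells (30372 and 30716 on day 18), 7084 to 12240 in pluripotent cells and 4580 and 4975 in keratinocytes. Muscle (10 genes, 1239 to 2371), immune and blood (7 genes, 753 to 2286) and endothelial markers (6 genes, 671 to 2100) had sums within these ranges on all arrays. The 2 day 8 arrays of a cassette stood apart from each other. All 18 fibroblast markers were lower on array 2 than on array 1 in both cassettes, with a median log2 difference of -2.10 in low-KLF4 and -1.73 in high-KLF4, and proliferation genes were higher on array 2 for 11 of 11 and 10 of 11 genes. The isozyme genes themselves were higher on array 2 for 9 of 10 genes in low-KLF4 and 7 of 10 in high-KLF4. Where a result changed without 1 of these arrays, its value without it is given below, and the part of the marker differences in the results was not tested.

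The proximal promoters of 4 of the genes are shown first, because these genes stand for the main patterns that follow: Ldha kept nearly the same signal on most arrays, Ldhb and Pdk1 were lower in day 8 sorted cells than in pluripotent cells, and Slc2a1 rose with time. RefSeq (GRCm38.p6) had a window from 250 bases before to 50 after the transcription start for 9 of the 10 genes. The capitals mark matches to ACGTG, a form of the core of the hypoxia response element, on either strand (CACGT is its reverse complement). The related form GCGTG, which also occurs in the printed windows, was not searched for or marked. CACGTG, the E-box bound by MYC and other factors, overlaps that core on both strands.
Ldha, chr7:46845554-46845853, plus strand: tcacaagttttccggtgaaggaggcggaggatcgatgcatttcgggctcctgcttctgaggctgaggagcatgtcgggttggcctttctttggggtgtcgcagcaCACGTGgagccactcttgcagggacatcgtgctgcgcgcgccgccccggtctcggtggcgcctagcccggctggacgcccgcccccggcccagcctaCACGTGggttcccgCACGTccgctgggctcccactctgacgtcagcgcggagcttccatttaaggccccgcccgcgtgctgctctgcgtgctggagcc
Ldhb, chr6:142507908-142508207, minus strand: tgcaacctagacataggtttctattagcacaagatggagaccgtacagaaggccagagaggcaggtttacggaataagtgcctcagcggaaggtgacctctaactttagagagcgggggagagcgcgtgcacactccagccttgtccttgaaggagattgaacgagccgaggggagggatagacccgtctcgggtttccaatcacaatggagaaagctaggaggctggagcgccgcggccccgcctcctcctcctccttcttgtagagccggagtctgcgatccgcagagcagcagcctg
Slc2a1, chr4:119108495-119108794, plus strand: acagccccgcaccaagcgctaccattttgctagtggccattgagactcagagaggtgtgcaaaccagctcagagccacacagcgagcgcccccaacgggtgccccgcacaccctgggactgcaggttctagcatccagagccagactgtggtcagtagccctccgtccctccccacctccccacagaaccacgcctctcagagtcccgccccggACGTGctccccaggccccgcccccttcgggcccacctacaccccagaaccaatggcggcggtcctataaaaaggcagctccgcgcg
Pdk1, chr2:71872974-71873273, plus strand: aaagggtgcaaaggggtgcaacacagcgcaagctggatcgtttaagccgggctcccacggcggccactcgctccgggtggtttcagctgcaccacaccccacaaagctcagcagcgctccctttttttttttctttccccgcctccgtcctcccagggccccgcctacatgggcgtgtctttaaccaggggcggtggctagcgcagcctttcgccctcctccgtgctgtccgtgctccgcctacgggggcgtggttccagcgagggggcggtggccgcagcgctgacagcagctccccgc
The Ldha window held 5 matches to ACGTG, which include 2 CACGTG boxes that each count on both strands, and the Slc2a1 window held 1. The Ldhb and Pdk1 windows held 0. Over all 32851 promoter windows of this length, 19.6% held ACGTG and 7.15% held CACGTG. For each of the 9 genes, the window nearest the annotated start of the gene was read. Of these windows 4 held ACGTG, namely those of Slc2a1, Hk2, Pfkm and Ldha, and 2 held CACGTG, namely those of Pfkm and Ldha. Hk1 held 0 matches to ACGTG there but 2 in its other window, and Pfkm, Ldha and Pdk1 also have other windows. A match is a description of the sequence only.

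The widest contrast among the 10 genes was in the transporter Slc2a3, which was as high in day 18 mCherry+ cells as in mESCs and lowest in keratinocytes. Over the 12 group means, Slc2a3 spanned 5.90 on the log2 scale, followed by Ldhb with 3.23 and Pdk1 with 2.50. The means of Pfkl, Pfkm, Pfkp, Hk2 and Slc2a1 spanned between 1.48 and 1.91. Ldha spanned 0.56 and Hk1 0.26. The signal of each gene on each array shows these spans side by side.

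**Figure D1:**
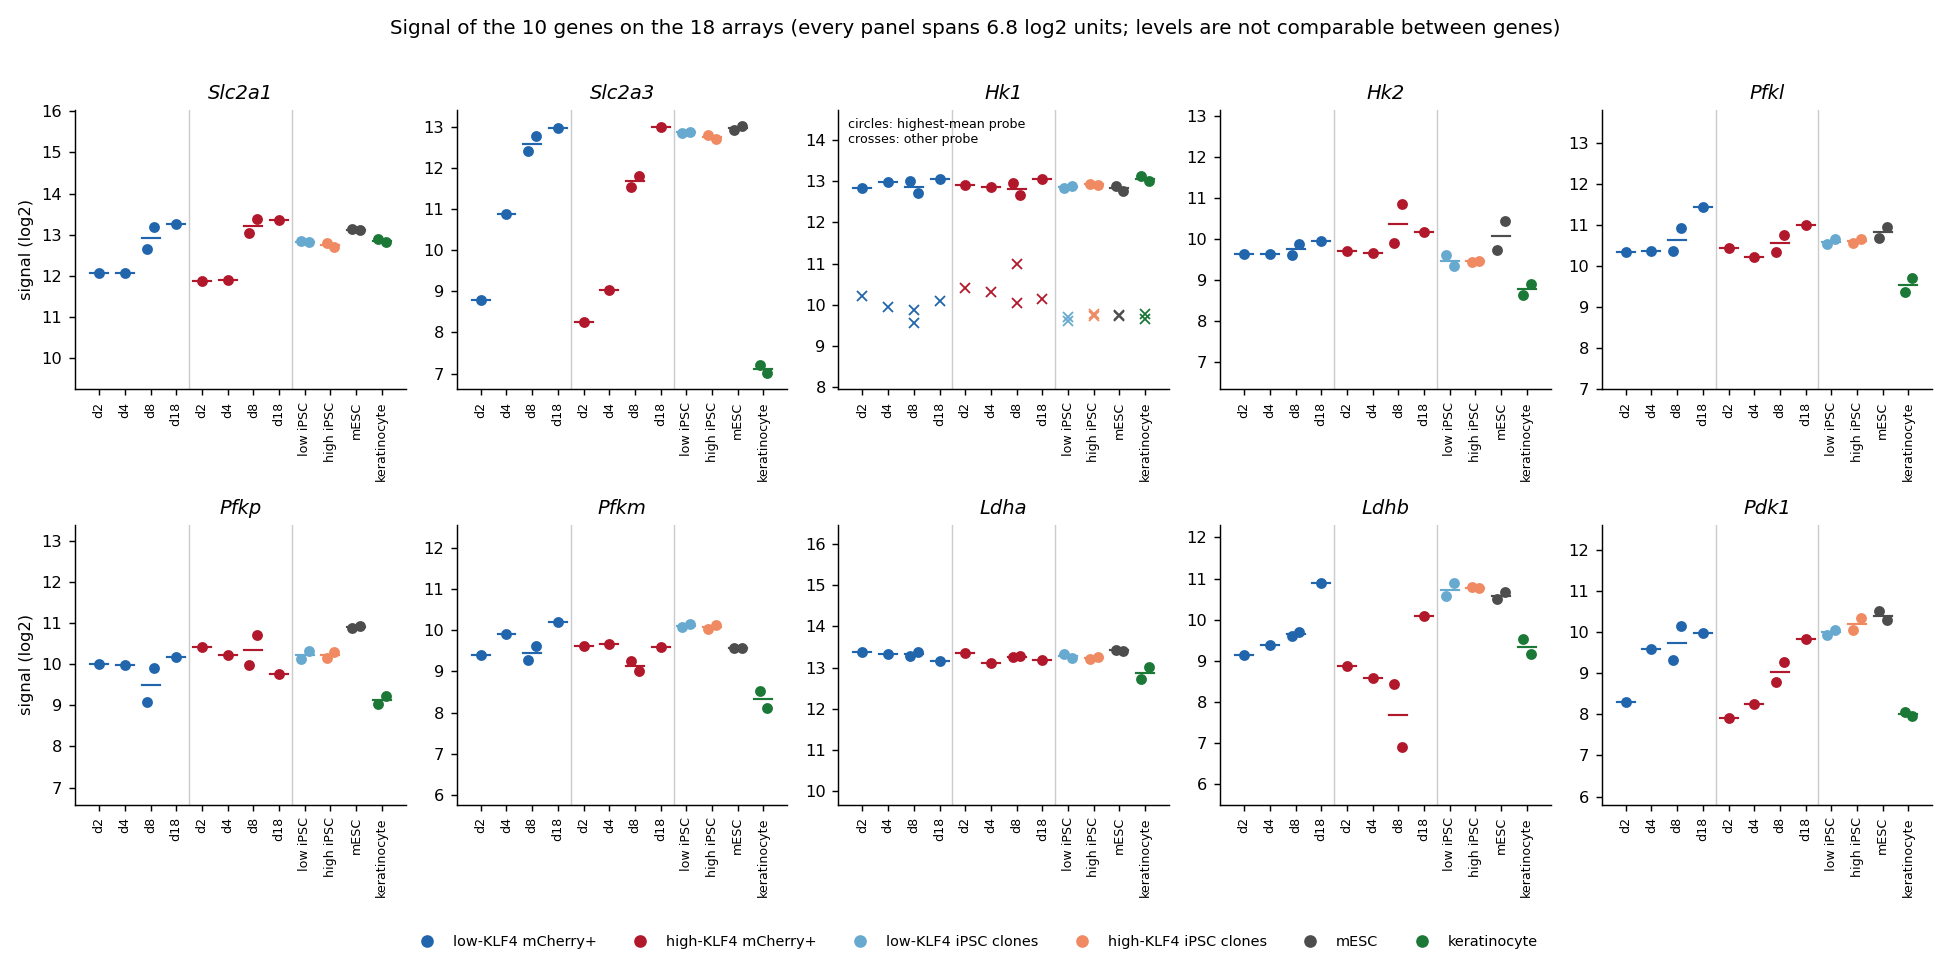
Signal (log2, vertical axis) of the 10 genes on each of the 18 arrays, grouped by cassette and day and by reference cell type; each point is an array, each short line a group mean, and every panel has the same span. Slc2a3, Pdk1 and Ldhb vary most between groups, with group means that span 5.90, 2.50 and 3.23 log2 units, while Ldha varies by 0.56, and for Hk1 the crosses give the other probe.

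Of the transporters, Slc2a3 (chromosome 6, 122727809 to 122802363, in GRCm38.p6 by RefSeq, as for the genes that follow) changed most. Over days 2, 4, 8 and 18, low-KLF4 mCherry+ cells read 442.3, 1894, 5483 and 6980 (the pair of day 8 arrays), and 8100. High-KLF4 cells read 307.2, 525, 2976 and 3602, and 8276 at the same times. Both cassettes thus started low and ended at a like signal on day 18, with the high-KLF4 arrays below the low-KLF4 arrays on days 2, 4 and 8. The iPSC clones read 7402 (A7), 7542 (A9), 7123 (A10) and 6696 (H10), and the mESC arrays 7806 and 8314. Keratinocytes read 147.6 and 129, below every other array. These values lay near the array medians (139.4 to 161.6), and no detection call tells whether they were above background. The fold sizes for keratinocytes depend on them. Day 8 cells were 1.66-fold lower than pluripotent cells (log2 difference -0.73, SE 0.09, limma adjusted p = 0.000332, 4 against 6 arrays), and the arrays overlapped in that low-KLF4 array 2 lay above clone H10. Keratinocytes were 54.1-fold lower than pluripotent cells (log2 difference -5.76, SE 0.11, limma adjusted p = 1.22e-08) and 32.6-fold lower than day 8 cells (-5.03, limma adjusted p = 5.79e-08).

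Slc2a1 (chromosome 4, 119108745 to 119137330), whose promoter is printed above, behaved differently. Its signal was 4298 and 4291 on days 2 and 4 of low-KLF4, 6367 and 9271 on day 8, and 9849 on day 18. High-KLF4 cells read 3782, 3813, 8427 and 10698, and 10489. The arrays of days 2 and 4 were the lowest of all 18 in both cassettes, and those of day 18 were above every pluripotent array. The clones lay between 6607 and 7322, the mESC arrays at 8972 and 8854, and the keratinocytes at 7608 and 7187, within the range of the pluripotent arrays. Neither day 8 cells (log2 difference 0.17, 95% interval -0.09 to 0.42, limma adjusted p = 0.271) nor keratinocytes (-0.04, interval -0.37 to 0.28, limma adjusted p = 0.845) passed the test against pluripotent cells. Without low-KLF4 day 8 array 1, Slc2a1 was higher in day 8 than in pluripotent cells (0.30, limma adjusted p = 0.0271) and lower in keratinocytes than in day 8 cells (-0.34, limma adjusted p = 0.0476).

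The hexokinase pair showed smaller differences. Hk2 (chromosome 6, 82725025 to 82774454), the inducible form that binds mitochondria in growing cells, read 400.2 and 482 in keratinocytes, the lowest values of the series. The 10 mCherry+ arrays lay between 781.3 and 1839, the highest being high-KLF4 day 8 array 2, and the pluripotent arrays between 650.7 and 1380, the highest being mESC array 2. Keratinocytes were 1.85-fold lower than pluripotent cells (log2 difference -0.89, SE 0.26, limma adjusted p = 0.022) and 2.43-fold lower than day 8 cells (-1.28, SE 0.27, limma adjusted p = 0.0084). The former call was lost when either keratinocyte array was left out (limma adjusted p = 0.164 without array 1 and 0.0657 without array 2), and the latter without array 1 (limma adjusted p = 0.083). Day 8 cells did not pass the test against pluripotent cells (0.39, interval -0.08 to 0.86), although they did without high-KLF4 array 1 (0.63, limma adjusted p = 0.0219).

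Hk1 (chromosome 10, 62268855 to 62379920), the constitutive hexokinase, is uncertain here because its probes disagree. The probe with the higher mean lay between 6515 and 8914 on all 18 arrays. Over these arrays it correlated with 17 probes that list the ribosomal protein gene Rpl17 (median r 0.85, range 0.70 to 0.89) and not with the other Hk1 probe (r -0.36), a description only. The other probe read 756.2 to 1353 in mCherry+ cells, apart from 2013 on high-KLF4 day 8 array 2, and 784 to 874 in the pluripotent cells. It read 872.7 and 802.1 in keratinocytes. Neither probe passed the test in any of the comparisons with all arrays in the fit. Both keratinocyte arrays lay above all pluripotent arrays by the former probe (0.20, limma adjusted p = 0.158) but among them by the latter (-0.00, limma adjusted p = 0.991). The difference of day 8 from pluripotent cells was -0.04 (interval -0.23 to 0.14) by the former probe and 0.39 (interval 0.02 to 0.77, limma adjusted p = 0.0901) by the latter.

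The 3 phosphofructokinase subunits were all lower in keratinocytes. Pfkm (chromosome 15, 98092589 to 98132447), the muscle subunit, read 368.6 and 275.5 there, against 753.1 to 1144 in pluripotent and 515.3 to 1183 in mCherry+ cells. This was 3.04-fold lower than in pluripotent cells (log2 difference -1.61, SE 0.13, limma adjusted p = 2.59e-05). Pfkl (chromosome 10, 77986947 to 78009807) was 2.22-fold lower (-1.15, SE 0.18, limma adjusted p = 0.000815), with 655 and 830.5 against 1485 to 1983. Pfkp (chromosome 13, 6579874 to 6649060) was 2.51-fold lower (-1.33, SE 0.24, limma adjusted p = 0.0019), with 523.6 and 597.4 against 1116 to 1959. For each of these subunits, both keratinocyte arrays lay below all 6 pluripotent arrays. Against day 8 cells the log2 differences of keratinocytes were -0.98 for Pfkm (SE 0.14, limma adjusted p = 0.00125) and -1.07 for Pfkl (SE 0.19, limma adjusted p = 0.00314). For Pfkp it was -0.79 (SE 0.25, limma adjusted p = 0.0457), where the arrays overlapped and the call was lost without either keratinocyte array, without low-KLF4 day 8 array 2 or without high-KLF4 day 8 array 2 (limma adjusted p between 0.0651 and 0.245).

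In sorted cells, Pfkm was lower on day 8 than in pluripotent cells (-0.63, SE 0.11, limma adjusted p = 0.00184), with 619.4 and 791.4 in low-KLF4 and 613.8 and 515.3 in high-KLF4 cells. The clones read 1051 to 1144 and the mESC arrays 764.2 and 753.1, so 1 day 8 array reached above the mESCs. Pfkp read 545.5 and 959.2 on day 8 in low-KLF4 and 1001 and 1688 in high-KLF4 cells. All 4 of these values lay below the mESC arrays (1900 and 1959), yet the clones (1116 to 1276) lay among them. The Pfkp difference of -0.53 from pluripotent cells missed the threshold (limma adjusted p = 0.0508) and passed it without array 2 of either cassette (-0.74, limma adjusted p = 0.00764 without the low-KLF4 array, and -0.72, limma adjusted p = 0.013 without the high-KLF4 array). Pfkl did not pass (-0.08, interval -0.40 to 0.24). Its highest signals were those of day 18, 2779 in low-KLF4 and 2032 in high-KLF4, against 1297 and 1385 on day 2.

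Of the lactate dehydrogenase subunits, Ldhb passed the test on day 8 and Ldha did not. Ldha (chromosome 7, 46842274 to 46855627), the subunit that favours lactate formation, read 9111 to 10692 in low-KLF4 and 8881 to 10424 in high-KLF4 mCherry+ cells. It read 9499 to 10213 in the clones and 10989 and 10902 in mESCs. These ranges overlap apart from the mESC arrays, which lay above all others. Day 8 and pluripotent cells differed by -0.01 (SE 0.07, interval -0.17 to 0.15, limma adjusted p = 0.912). Keratinocytes, at 6699 and 8287, were 1.36-fold lower than pluripotent cells (log2 difference -0.44, SE 0.09, limma adjusted p = 0.00315) and 1.35-fold lower than day 8 cells (-0.43, limma adjusted p = 0.00822). Without keratinocyte array 1 the former was -0.29 (limma adjusted p = 0.0375) and the latter -0.28, no longer past the threshold (limma adjusted p = 0.0771).

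Ldhb (chromosome 6, 142490249 to 142507957), the subunit typical of tissues that oxidize lactate, was low in sorted cells until day 18. Over days 2, 4, 8 and 18, low-KLF4 cells read 564.1, 670.4, 777.4 and 826.7, and 1905. High-KLF4 cells read 470, 382.5, 346.3 and 119.6, and 1088. The day 18 arrays were the highest of each cassette, and high-KLF4 day 8 array 2 was the lowest of the series. Its value of 119.6 lay below the array medians (139.4 to 161.6), and no detection call tells whether it was above background. The clones read 1527, 1882, 1776 and 1752, the mESC arrays 1443 and 1627, and the keratinocytes 735.6 and 572.6. All 4 day 8 arrays lay below all 6 pluripotent arrays, a 4.11-fold difference (log2 difference -2.04, SE 0.26, limma adjusted p = 0.000407). Keratinocytes were 2.56-fold lower than pluripotent cells (-1.36, SE 0.33, limma adjusted p = 0.00961), a call lost without keratinocyte array 2 (-1.18, limma adjusted p = 0.0908). The other Ldhb probe correlated with this one at r 0.997, never differed from it by more than 0.21 on the log2 scale, and gave a day 8 difference of -2.12. With reference to day 8, keratinocytes were not called different (0.68, interval -0.12 to 1.48), but they were higher without high-KLF4 array 1 (1.07, limma adjusted p = 0.001).

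Pdk1 (chromosome 2, 71873215 to 71903858) had a pattern much like that of Slc2a3. In low-KLF4 cells it read 317.2, 768.8, 641 and 1132, and 1011 on days 2, 4, 8 and 18, and in high-KLF4 cells 238.8, 304.7, 441 and 623.7, and 912.3. The lowest arrays were those of day 2, high-KLF4 day 4 and the keratinocytes (267.5 and 250.8). The clones read 985.6 to 1292 and the mESC arrays 1462 and 1250. Day 8 cells were 1.76-fold lower than pluripotent cells (log2 difference -0.81, SE 0.17, limma adjusted p = 0.00541), with 1 of 4 arrays, low-KLF4 array 2, inside the pluripotent range. Keratinocytes were 4.54-fold lower (-2.18, SE 0.22, limma adjusted p = 6.48e-05), and 2.58-fold lower than day 8 cells (-1.37, SE 0.23, limma adjusted p = 0.00246). Across the 12 group means, the log2 signals of Pdk1 and Slc2a3 had a Pearson r of 0.95, a description over groups that share arrays of 1 normalization.

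Set against all 23410 probes tested, the counts were as follows. In day 8 against pluripotent cells, 4 of the 10 genes were lower (Slc2a3, Pfkm, Ldhb and Pdk1) and 0 higher, where 20.3% of all probes were called lower and 20.8% higher (41.1% either way). The share called either way among the genes thus was near that of all probes. At an unadjusted p under 0.05 the limma counts were 5 lower and 0 higher, where 11587 of the 23410 probes passed either way. The t-test named in the study's methods called 4 after adjustment, and 7760 of all probes. With only array 2 of each cassette, the log2 differences were -0.57 for Slc2a3, -0.60 for Pfkm, -2.40 for Ldhb and -0.48 for Pdk1, and with only array 1 they were -0.89, -0.65, -1.68 and -1.14, each still called by limma. In keratinocytes against pluripotent cells, 8 were lower, where 23.4% of all probes were called lower, and 0 higher, against 20.9% of probes (44.3% either way). Slc2a1 and Hk1 were the genes that limma did not call, while the t-test of the methods called Hk1 (higher) and not Hk2. That t-test called 10646 of all probes. In keratinocytes against day 8 cells, 7 were lower (15.4% of probes) and 0 higher (13.5% of probes, 28.9% either way), Ldhb being the further exception. Without keratinocyte array 1 this count fell to 4, and by the t-test of the methods to 1, Slc2a3. That t-test called 1426 of all probes there. A limma fit of these 6 arrays alone did not call Pfkp (adjusted p = 0.184) or Ldha (adjusted p = 0.0727). The median log2 difference of the 10 genes was -0.30 in the day 8 comparison, -1.24 in keratinocytes against pluripotent cells and -0.89 in keratinocytes against day 8 cells, and that of all probes was 0.04, 0.02 and -0.02. These comparisons share arrays, so their counts are not independent of each other.

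**Figure D2:**
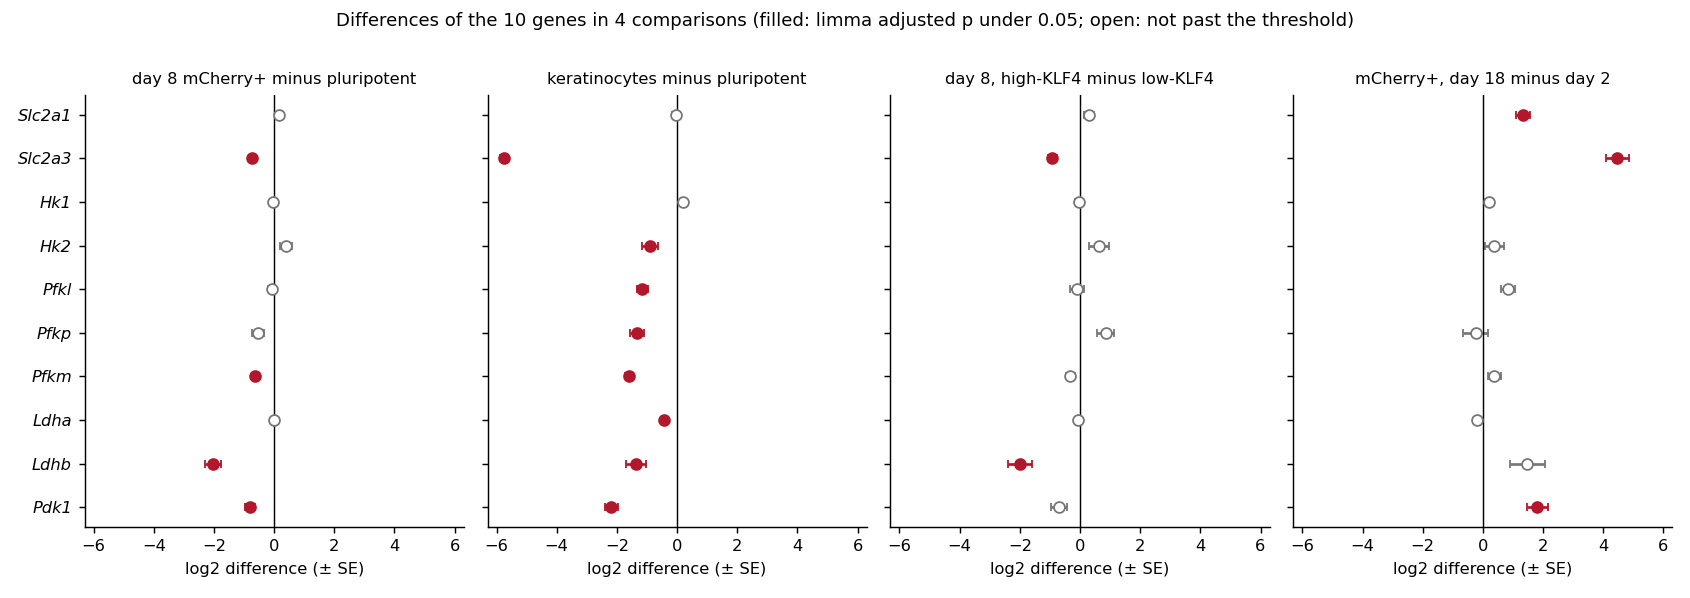
Log2 difference (horizontal axis, bars are the SE) of each of the 10 genes in 4 comparisons; filled points passed the limma threshold and open points did not. Slc2a3 lies at -5.76 in keratinocytes and at 4.47 in day 18 against day 2, while Ldha lies at -0.44 and -0.20 in the same comparisons.

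In keratinocytes other lists moved with these genes. The summed signal of 11 proliferation genes was 5834 and 8686 in keratinocytes against 32601 to 34866 in pluripotent cells, and all 11 were called lower, with a median log2 difference of -2.10. The melanocyte gene Dct read 4.97 higher and Pmel 2.87 higher on the log2 scale than in pluripotent cells (limma adjusted p = 3e-08 and 4.85e-07), out of 8 neural and melanocyte markers with a summed signal of 3979 and 5441, against 1728 to 2067. Of these 8, 5 were called higher and 2 lower, the neural genes Nes (-2.37) and Tubb3 (-0.94). The part of either list in the keratinocyte values was not tested.

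Low-KLF4 and high-KLF4 cells were compared on day 8, the only day with 2 arrays for each. Slc2a3 was 1.89-fold lower in high-KLF4 cells (log2 difference -0.92, SE 0.14, limma adjusted p = 0.00984), and Ldhb was 3.94-fold lower (-1.98, SE 0.40, limma adjusted p = 0.0337). These were 2 of 10 genes called lower, where 1.29% of all probes were, and 0 were called higher, where 2.71% of probes were (3.99% either way). For both genes the 2 high-KLF4 arrays lay below the 2 low-KLF4 arrays. The Slc2a3 difference was -0.95 between the arrays numbered 2 and -0.88 between the arrays numbered 1. For Ldhb it was -2.79 and -1.17, so its size rested on the value of 119.6 on high-KLF4 array 2 (-1.21 without that array, limma adjusted p = 0.0181). The Ldhb call was lost without either low-KLF4 array (limma adjusted p = 0.0527 without array 1 and 0.126 without array 2). With only these 4 arrays in the fit, or with the t-test of the methods, 0 of the 10 genes were called. The t-test called 0 of all probes after adjustment. At an unadjusted p under 0.05 limma gave 3 lower, Pdk1 being the further one, and 1 higher, Pfkp. Of all 23410 probes, 3785 passed either way at that level. A fit with the day 8 array number as a block called further genes, which are given in the closing section.

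Among the other genes, Pfkp (0.85, SE 0.29, limma adjusted p = 0.179), Hk2 (0.63, SE 0.32, limma adjusted p = 0.389) and the other Hk1 probe (0.79, SE 0.26, limma adjusted p = 0.151) had higher values on both high-KLF4 day 8 arrays than on both low-KLF4 arrays without passing the test. Pdk1 had lower values on both (-0.70, SE 0.26, limma adjusted p = 0.223) and passed without low-KLF4 array 1 (-1.11, limma adjusted p = 0.0207), while Pfkp passed without high-KLF4 array 1 (1.22, limma adjusted p = 0.0417). Pfkm also had lower values on both high-KLF4 arrays, by a narrow margin (-0.32, SE 0.16, limma adjusted p = 0.415). The share of all probes whose day 8 arrays separate by cassette is not given, so this order is a description only. Ldha differed by -0.06 (interval -0.30 to 0.18) and Slc2a1 by 0.31 (interval -0.09 to 0.70). The keratinocyte marker sum and several pluripotency markers also differed between the cassettes on day 8: 8 of 14 keratinocyte markers were higher in high-KLF4 cells, and of 16 pluripotency markers 5 were higher and 2 lower, the latter being Nanog (-1.44, limma adjusted p = 0.000289) and Nr0b1 (-1.16, limma adjusted p = 0.00494). Their part in the Slc2a3 and Ldhb results was not tested.

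In the iPSC clones the cassettes gave similar values. The log2 difference of high-KLF4 from low-KLF4 clones was -0.11 for Slc2a3, 0.06 for Ldhb and 0.19 for Pdk1. Whether the cassette difference on day 8 was larger than that in the clones was tested as an interaction, and 0 of the 10 genes passed, where 0.671% of all probes were called higher and 0.154% lower (0.824% either way). At an unadjusted p under 0.05 there were 3, all lower, namely Slc2a3 (-0.80, SE 0.20, limma adjusted p = 0.143), Ldhb (-2.03, SE 0.57, limma adjusted p = 0.207) and Pdk1 (-0.89, SE 0.37, limma adjusted p = 0.456). Of all 23410 probes, 2419 had an unadjusted p under 0.05. The t-test was not run for the interaction. With the day 8 array number as a block, calls of the interaction changed, as given in the closing section. Leaving out 1 day 8 array brought Slc2a3 (without low-KLF4 array 1, -0.98, limma adjusted p = 0.0308) or Ldhb (without high-KLF4 array 1, -2.80, limma adjusted p = 0.000813) past the threshold. Averaged over days 2, 4, 8 and 18 with day in the model, 0 of 10 genes passed between the cassettes, where 0.158% of all probes were called higher and 0.00427% lower (0.162% either way). The values there were -1.17 for Ldhb, -0.84 for Slc2a3 and -0.66 for Pdk1 (limma adjusted p between 0.191 and 0.234). These were the 3 genes with an unadjusted p under 0.05, as were 3718 of all probes.

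The time course was tested from day 2 to day 18 with both cassettes in 1 model. Each cassette had 1 array on each of these days, so the cassettes served as replicates of a day. The model assumes that the cassettes differ by the same amount on every day. Its spread came from departures from this and from the day 8 pairs. Of the 10 genes 3 rose, where 5.45% of all probes did, and 0 fell, where 8.56% did (14.0% either way). At an unadjusted p under 0.05, 5 were higher, where 6679 of all 23410 probes passed either way. Slc2a3 rose by 4.47 on the log2 scale, or 22.2-fold (SE 0.39, limma adjusted p = 0.0013), Pdk1 by 1.80, or 3.49-fold (SE 0.35, limma adjusted p = 0.0192), and Slc2a1 by 1.33, or 2.52-fold (SE 0.23, limma adjusted p = 0.0115). In each of the 3, both day 18 arrays lay above both day 2 arrays. The same order of arrays was seen, without the test being passed, for Pfkl (0.83, limma adjusted p = 0.0538), Ldhb (1.48, SE 0.58, limma adjusted p = 0.147), Hk2 (0.38) and the higher Hk1 probe (0.19). The share of all probes with this order of 2 against 2 arrays is not given, so it is a description only. Pfkl passed without low-KLF4 day 8 array 1 (limma adjusted p = 0.0375) or array 2 (limma adjusted p = 0.042), and Ldhb without high-KLF4 day 8 array 2 (limma adjusted p = 0.0101). Ldha went the other way (-0.20, SE 0.09, limma adjusted p = 0.201). Between days 2 and 4 the single low-KLF4 arrays went from 442.3 to 1894 for Slc2a3 and from 4298 to 4291 for Slc2a1, and the high-KLF4 arrays from 307.2 to 525 and from 3782 to 3813. From day 2 to day 18, 15 of 16 pluripotency markers rose, and their part in these results was not tested.

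The choice between isozymes was read as the log2 ratio of 2 genes within an array, set to 0 at the mean of the 6 pluripotent arrays, as a description with no test. Slc2a3 over Slc2a1 lay between -0.17 and 0.10 on the pluripotent arrays. In low-KLF4 cells it was -3.25, -1.15, -0.19 and -0.38, and -0.25 over days 2, 4, 8 and 18, and in high-KLF4 cells -3.59, -2.83, -1.47 and -1.54, and -0.31. Keratinocytes lay at -5.66 and -5.77. All 10 mCherry+ arrays were thus below all 6 pluripotent arrays, the low-KLF4 arrays of day 8 being closer to them than the high-KLF4 arrays of that day. The margin was narrow, with low-KLF4 day 8 array 1 at -0.19 and mESC array 1 at -0.17. The 2 low-KLF4 day 8 arrays lay further apart than that.

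Ldhb over Ldha lay between -0.32 and 0.27 on the pluripotent arrays. It was -1.63, -1.32, -1.06 and -1.09, and 0.35 in low-KLF4 cells and -1.86, -1.93, -2.20 and -3.77, and -0.48 in high-KLF4 cells on days 2, 4, 8 and 18. Until day 8 every mCherry+ array lay below the pluripotent range, and on day 18 the low-KLF4 array lay above it and the high-KLF4 array just below. Keratinocytes had -0.58 and -1.25. Because Ldha varied little, this ratio follows Ldhb.

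Pfkp over Pfkl was low on day 18 (-1.04 in low-KLF4, -0.99 in high-KLF4) and in low-KLF4 cells on day 8 (-1.05 and -0.81), and lay between -0.18 and 0.23 on the other mCherry+ arrays. Its pluripotent range was -0.19 to 0.42, the mESC arrays giving the 2 highest values, and keratinocytes had -0.10 and -0.25. The keratinocyte values thus lay in or just below the pluripotent range. Pfkm over Pfkl was -0.33 to -0.99 on day 8 and -0.48 and -0.63 on day 18. The clones lay at 0.21 to 0.29 and the mESC arrays at -0.36 and -0.64, so the references themselves did not share a value. Hk2 over Hk1 is not read further, since on day 8 it ranged from -0.18 to 1.38 with the higher Hk1 probe and from -0.09 to 0.09 with the other.

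**Figure D3:**
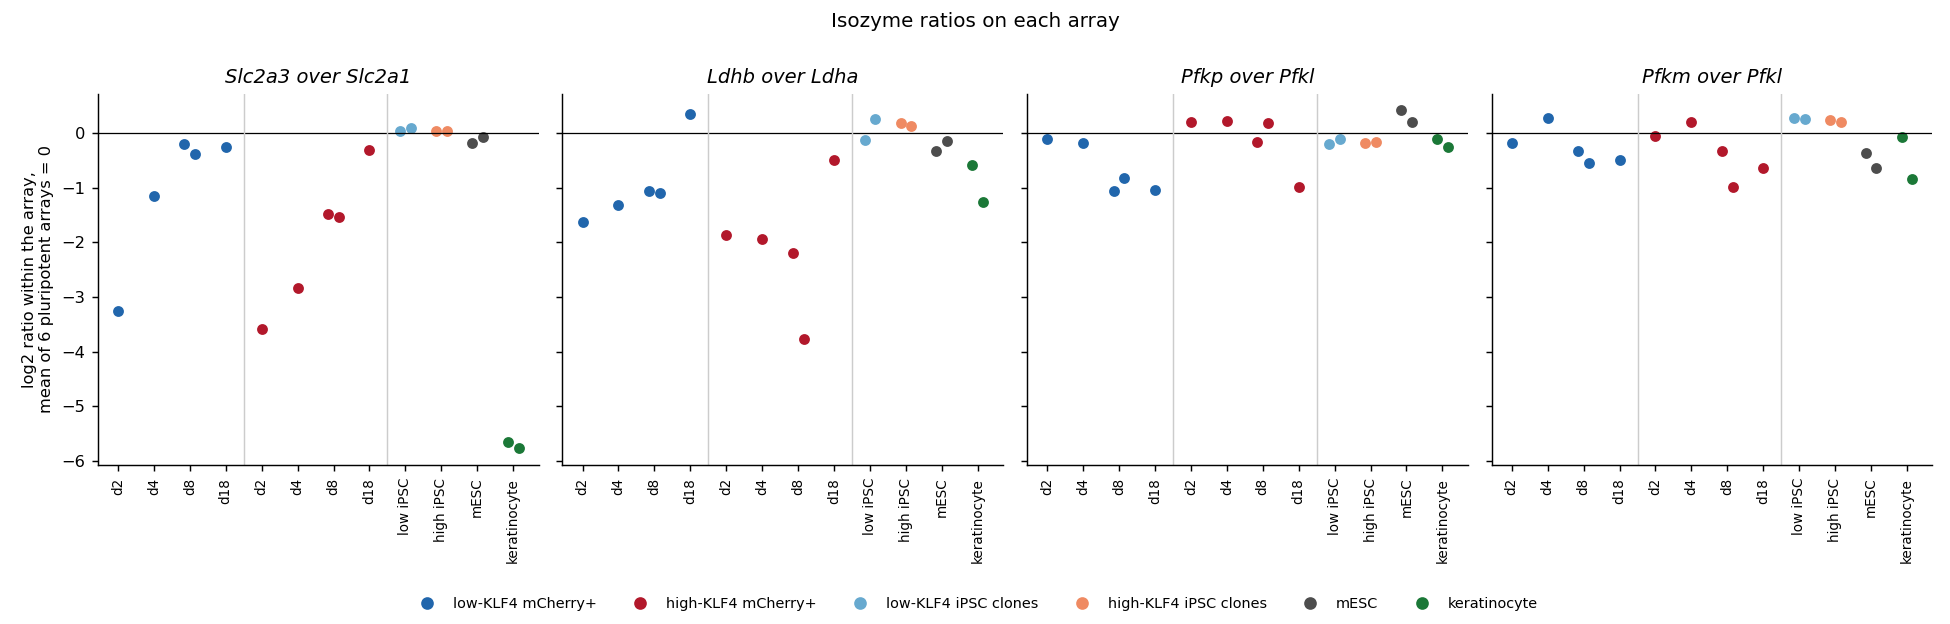
Log2 ratio of isozyme pairs within each of the 18 arrays (vertical axis, the mean of the 6 pluripotent arrays is 0); each point is an array and colours mark cassette or cell type. Slc2a3 over Slc2a1 approaches 0 by day 8 in low-KLF4 (-0.19 and -0.38) but not in high-KLF4 cells (-1.47 and -1.54), and Ldhb over Ldha reaches its lowest value, -3.77, on a high-KLF4 day 8 array.

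No single gene of the 10 separated all 10 mCherry+ from all 6 pluripotent arrays, where 6.81% of all probes were higher and 9.44% lower on all sorted arrays (16.3% either way). Without the day 18 arrays 1 gene, Ldhb, did so, where 23.0% of all probes did. Between the references, 0 of the 10 genes passed in iPSC clones against mESCs, where 2.02% of all probes were called higher and 2.28% lower (4.31% either way), and limma gave 2 with an unadjusted p under 0.05, Pfkm (0.53, SE 0.14, limma adjusted p = 0.0832) and Pfkp (-0.69, SE 0.25, limma adjusted p = 0.192). All 4 clones lay above both mESC arrays for Pfkm. They lay below both for Pfkp, Slc2a1, Slc2a3, Hk2, Pfkl and Ldha. The share of all probes with such an order is not given, so it is a description only. In the fit of all arrays, 4231 of all 23410 probes had an unadjusted p under 0.05. The t-test of the methods, which uses the 6 clone and mESC arrays alone, called 3 genes after adjustment, namely Pfkm, Pfkp and Slc2a1 (-0.34). A fit of limma to the same arrays alone called these 3 as well. Of all probes, the t-test called 1310.

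The lists for the rest of the pathway on day 8 stand beside 20.8% of all probes called higher and 20.3% lower, 41.1% in all, and no list was tested against that background. Of 13 measured genes from aldolase to pyruvate kinase, 2 were higher and 3 lower than in pluripotent cells, with the pyruvate kinase Pklr at -0.63 and the phosphoglycerate mutase Pgam1 at -0.31. Of 6 other hexokinase and phosphofructokinase genes, 2 were higher and 0 lower. These were Pfkfb3 (1.10, SE 0.09, limma adjusted p = 2.65e-05) and Pfkfb4 (0.84, SE 0.16, limma adjusted p = 0.00306), which make and break down fructose 2,6-bisphosphate, the activator of phosphofructokinase. Of 9 other glucose transporters 3 were higher and 3 lower, with the fructose transporter Slc2a5 at -0.96. Among 17 genes of lactate and pyruvate handling 4 were higher and 4 lower, including the lower testis subunit Ldhc (-0.70) and the phosphatase Pdp2 (-0.55), which reverses the action of PDK1. Gluconeogenesis had 3 of 7 higher and 0 lower, with G6pc3 at 0.57, and the pentose phosphate pathway 2 higher and 2 lower of 7, with Pgd, its second dehydrogenase, at 0.97 and Rpe at -0.52. Of 16 targets of the hypoxia factor HIF outside glycolysis 6 were higher and 2 lower, led by Ndrg1 (1.78) and P4ha1 (0.92), with Kdm3a at -0.63. Several of the genes named here were near or below the array medians on day 8. Their mean log2 signals on day 8 and in pluripotent cells were 6.51 and 7.47 for Slc2a5 and 6.04 and 6.74 for Ldhc. They were 7.05 and 7.68 for Pklr and 7.21 and 7.75 for Pdp2. No detection call tells whether such probes were above background.

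In keratinocytes the same lists stand beside 20.9% of all probes called higher and 23.4% lower, 44.3% in all. Slc5a1, the sodium-glucose cotransporter, was 12.4-fold higher than in pluripotent cells (log2 difference 3.63, SE 0.09, limma adjusted p = 3.79e-08), and Slc2a12 was higher by 1.35. They were among 3 of 9 other transporters that were higher, with 0 lower. Pfkfb2 (2.18) and Pfkfb3 (2.16) were the 2 of 6 other hexokinase and phosphofructokinase genes called, both higher. From aldolase to pyruvate kinase 1 was higher and 4 lower of 13, with the enolases Eno3 (-1.89) and Eno2 (-1.14) lowest. Of 17 genes of lactate and pyruvate handling 4 were higher and 8 lower, among them the mitochondrial pyruvate carrier Mpc1 (1.30), Ldhd (0.83), Pdk4 (-2.02) and the lactate exporter Slc16a3 (-1.06). The pentose phosphate pathway had 4 of 7 higher and 0 lower, with Rpia at 1.19 and Taldo1 at 0.58, and gluconeogenesis 1 of 7 each way (Pck2 1.32, Fbp1 -0.73). Fbp1 was low on both sides, with a mean log2 signal of 5.84 in keratinocytes and 6.56 in pluripotent cells. HIF targets counted 6 higher and 5 lower of 16, from Ndrg1 (4.03) and Adm (2.98) to Egln3 (-3.38) and Bnip3, which was 3.99-fold lower.

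**Figure D4:**
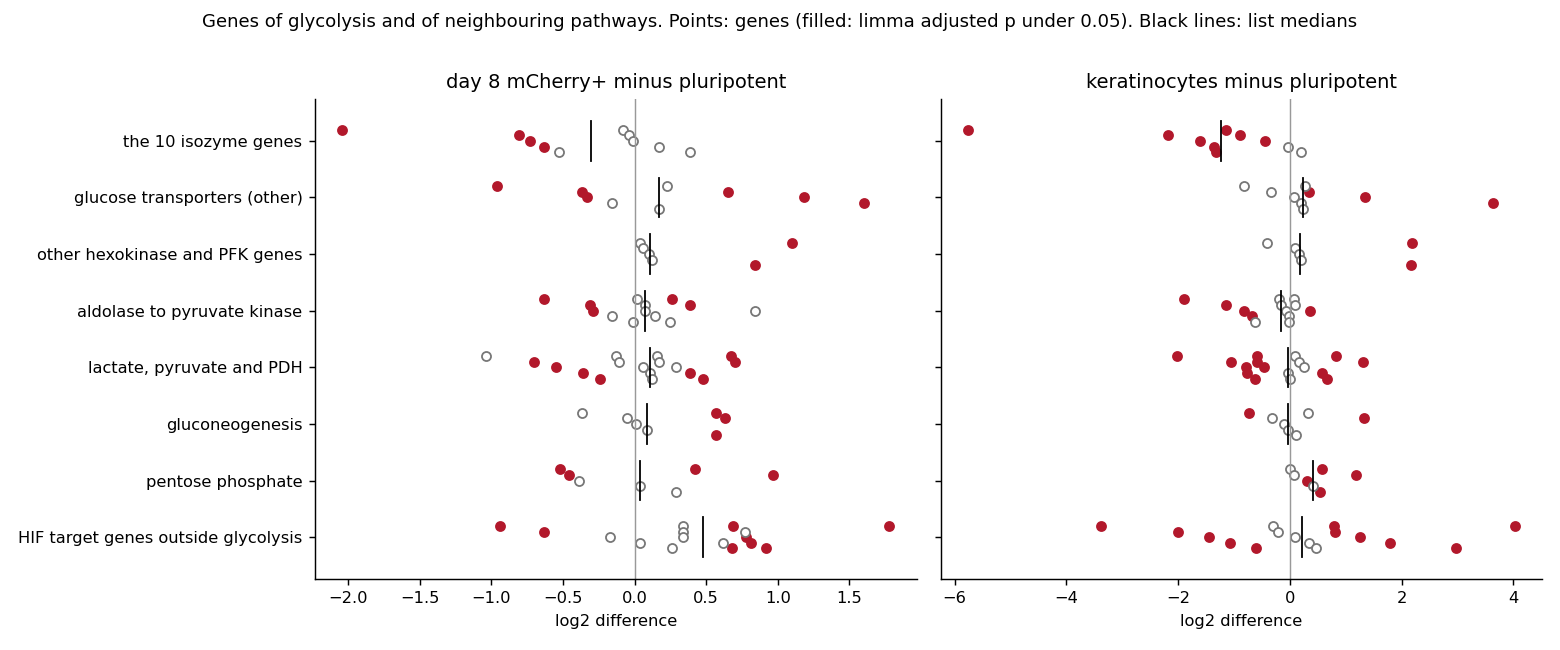
Log2 difference (horizontal axis) of every measured gene in the isozyme set and 7 pathway lists, for day 8 and for keratinocytes against pluripotent cells; filled points passed the limma threshold and black lines are list medians. The median of the 10 isozyme genes is -0.30 on day 8 and -1.24 in keratinocytes, and the medians of the other lists lie between 0.04 and 0.48 and between -0.16 and 0.42.

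Between the cassettes on day 8, where 2.71% of all probes were higher and 1.29% lower, 5 pathway genes passed. Pfkfb4 was higher in high-KLF4 cells (1.16, SE 0.24, limma adjusted p = 0.0363), as were Fbp2 (1.59, limma adjusted p = 0.00117) and Ndrg1 (1.85, limma adjusted p = 0.0101). Pcx, pyruvate carboxylase, was 4.88-fold lower (-2.29, SE 0.22, limma adjusted p = 0.00127), and Pdk3, another pyruvate dehydrogenase kinase, was lower (-0.63, limma adjusted p = 0.0272). None of the 9 other transporters, the 13 genes from aldolase to pyruvate kinase or the 7 pentose phosphate genes passed. From day 2 to day 18, 5.45% of all probes were called higher and 8.56% lower. Genes chosen here after their values were seen included Aldoc (3.04), Slc16a1 (1.14), Slc16a3 (1.27) and the HIF target Car9 (2.49), which rose. Eno3 (-1.96), Mpc1 (-1.08) and Slc16a7 (-1.07) fell. Of 17 genes of lactate and pyruvate handling 5 were higher and 3 lower. From aldolase to pyruvate kinase 1 was higher and 1 lower of 13, and of 16 HIF targets 3 were higher and 0 lower.

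The genes whose patterns were closest to the 3 most variable isozyme genes, by Pearson r over the 12 group means, were Gldc (0.984), Pspc1 (0.969) and Nanog (0.966) for Slc2a3. For Pdk1 they were Cnot1 (0.977), Nanog (0.975) and Gldc (0.968), and for Ldhb Nthl1 (0.966), 9430015G10Rik (0.961) and Ogdhl (0.955). Gldc, the glycine decarboxylase, and Nanog, the pluripotency factor whose promoter drives the GFP reporter, thus stood beside both Slc2a3 and Pdk1. In the order of group means, Slc2a3 ran from keratinocytes through days 2 and 4 of each cassette, high-KLF4 day 8 and low-KLF4 day 8 to the clones, mESCs and day 18. Of the 11 steps, 7 exceeded 1 SE of the difference between neighbouring means. This is a low bar and not a test, since the order was sorted on the same values. The 4 that did not were those among the low-KLF4 clones, mESCs and day 18 and from high-KLF4 to low-KLF4 clones. For Ldhb only 1 of 11 steps exceeded 1 SE, from high-KLF4 day 8 to high-KLF4 day 4. The other neighbours in its order lay within 1 SE of each other and are not distinguished.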

How the data were processed

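RNA was hybridised to Affymetrix Mouse Gene 1.0 ST arrays. The deposited signal intensities were made by the authors with RMA (GeneSpring GX 13.1 is named in the submitters' notes), which removes background, equalises the distributions of the arrays by quantiles and gives 1 value for each transcript cluster. They are linear and run from 20.2 to 19538.7, with array medians of 139.4 to 161.6. Quantile normalization gives all arrays the same overall distribution, so a change in total RNA per cell is not visible. The number of arrays limits the precision.

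The values were put on the log2 scale. Tests covered the 23410 of 28853 probes that carry a gene symbol, 1621 of which list several. One fit with limma 3.58.1 in R 4.3.3, of all 18 arrays in their 12 groups (6 residual and 2.25 prior degrees of freedom) gave the comparisons of group means. A second fit over the 10 mCherry+ arrays, with day and cassette as terms (5 and 2.08), gave day 18 against day 2 and the cassettes over all days. The pluripotent mean weights the clones of each cassette and the mESCs equally. Tests were two-sided, with Benjamini-Hochberg adjustment over all tested probes at 0.05, and intervals are 95% from the same fits. Whether arrays overlap was read as all of one set above all of the other. The fit was tested on simulated data. All 18 columns were used, and 0 were left out.

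All 10 isozyme genes were named. From each of the 15 other lists (7 of pathway genes and 8 of markers, including muscle, immune and blood, and endothelial cells), the rule named the 2 largest rises and 2 largest falls past the test with arrays that do not overlap, in the first 4 comparisons. Some of these are not printed. The members and lists were chosen with earlier results of these data known. Some genes of the pathway lists are not reported here. Promoters came from RefSeq (GRCm38.p6). Python 3.11.15, pandas 2.3.3, numpy 2.4.6 and matplotlib 3.10.9 were used for sequences, counts and figures.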

Additional observations from a re-analysis of the deposited data

How the results depend on the processing

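Of the values of single genes under alternatives, 1220 kept their sign and their side of the threshold, 67 came to pass it, 25 no longer did and 48 changed sign. None of those 48 passed the threshold in limma before or after the change. Leaving out the dimmest 30% of probes and limma-trend moved no count of called genes by over 1.5 times. Without 1 array at a time, the genes called higher ranged from 0 to 1 in day 8 against pluripotent cells, in keratinocytes against day 8 cells and between the cassettes on day 8, and from 3 to 4 in day 18 against day 2. The genes called lower ranged from 4 to 5, 6 to 8 and 4 to 8 in day 8 against pluripotent cells, keratinocytes against pluripotent cells and keratinocytes against day 8 cells, from 1 to 2 between the cassettes on day 8, and from 0 to 1 in the interaction. Where this left a group with 1 array, that array took its spread from the other groups. For the alternatives, other than the t-test of the methods and leaving out day 18, the share of all probes called is not given. A changed count therefore does not tell whether the isozyme genes or all probes changed.

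In keratinocytes against pluripotent cells, 1 gene, Hk1, was called higher after a second quantile normalization, after centring arrays on their median, with only the compared arrays and by the t-test of the methods. Median centring also called Hk1 higher against day 8 cells, 1 gene in place of 0, and no longer called Pfkp (adjusted p = 0.0826 in limma). The t-test called 1 gene lower there in place of 7. Between the cassettes on day 8, the count of lower genes was 0 with only the compared arrays and 0 by the t-test. In clones against mESCs both gave 1 higher and 2 lower. The t-test was not run for the interaction and the fits over all days. Without the day 18 arrays, 1 gene separated sorted from pluripotent cells.

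Day 8 arrays with the same number deviated together (r 0.735 between the cassettes over 23410 probes). The other pairs of groups had r between -0.033 and 0.021, which does not tell whether day 8 arrays of a number share an experiment. The labels name no shared origin, so the number was not used for pairing in the main fits. With a replicate block on the day 8 arrays, 1 gene was higher in day 8 against pluripotent cells, 1 in keratinocytes against pluripotent cells and 1 against day 8 cells. The block gave 2 higher between the cassettes on day 8 (Slc2a1 0.31 and Pfkp 0.85, adjusted p = 0.0416 and 0.00117 in limma) and also called Pdk1 lower there (-0.70, adjusted p = 0.0098), with 1 higher and 2 lower in clones against mESCs, and 1 higher and 3 lower in the interaction. These were Pfkp (0.84, adjusted p = 0.0147 in limma), Slc2a3 (adjusted p = 0.0104), Ldhb (adjusted p = 0.0413) and Pdk1 (adjusted p = 0.0337). With the block on the mESC and keratinocyte arrays too, 1 gene was higher in each of the first 3 of these comparisons. As settings chosen after the data were seen, both day 8 arrays of a number were left out. Without those numbered 1, 2 genes were higher in day 8 against pluripotent cells, 2 in keratinocytes against day 8 cells, 1 between the cassettes, and 1 higher and 3 lower in the interaction. Without those numbered 2, 1 gene was higher between the cassettes, and 6 in day 18 against day 2. Counts of all probes called with a block, or without the day 8 arrays of a number, are not given. Whether the isozyme genes changed more than all probes is therefore not shown, and the cause of these changes was not tested.

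The log2 differences that changed sign were as follows. With the mean of all single-symbol probes, Hk1 was 0.18 in day 8 against pluripotent cells, -0.08 in keratinocytes against day 8 cells, 0.37 between the cassettes on day 8, 0.30 in the interaction, -0.01 in day 18 against day 2 and 0.20 between the cassettes over all days. With the other Hk1 probe, a setting chosen after the data were seen, these values were 0.39, -0.40, 0.79, 0.70, -0.20 and 0.44, and clones against mESCs gave -0.04. A second quantile normalization gave 0.03 for Hk1 and 0.01 for Ldha in day 8 against pluripotent cells and 0.01 for Ldha in the interaction, and median centring gave 0.06 for Slc2a1 in keratinocytes against pluripotent cells. A few more came to 0.00 after rounding. Without the day 8 arrays numbered 1, day 8 against pluripotent cells gave 0.17 for Pfkl and 0.03 for Ldha, and the cassettes over all days gave -0.01 for Slc2a1. Without those numbered 2, day 8 against pluripotent cells gave -0.06 for Slc2a1 and 0.10 for Hk1, keratinocytes against day 8 cells 0.01 for Slc2a1, and the interaction 0.02 for Pfkm and 0.02 for Ldha.

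Without 1 array at a time, day 8 against pluripotent cells ranged from -0.11 to 0.03 for Hk1, from -0.22 to 0.06 for Pfkl and from -0.04 to 0.02 for Ldha. Between the cassettes on day 8, Hk1 ranged from -0.19 to 0.10 and Pfkl from -0.39 to 0.19. The interaction ranged from -0.24 to 0.04 for Hk1, from -0.40 to 0.17 for Pfkl and from -0.08 to 0.04 for Ldha, and the cassettes over all days from -0.05 to 0.12 for Slc2a1 and from -0.07 to 0.01 for Hk1.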
